A study of Mus musculus with 4 samples.

Results

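The open chromatin around 5 immediate early genes, Fos, Jun, Junb, Egr1 and Atf3, was examined in adipose progenitors freshly isolated from mouse fat. Immediate early genes are switched on within minutes of a stimulus, before any new protein is made, and tissue dissociation is itself known as such a stimulus. All peaks that overlapped 1 window per gene were taken, and peaks of the libraries that overlapped each other were merged into regions. The 5 windows held 81 of the 83319 merged regions of the series. On build mm9 they spanned 86750000 to 86900000 of chromosome 12 for Fos, 94620000 to 94800000 of chromosome 4 for Jun, 87450000 to 87560000 of chromosome 8 for Junb, 34960000 to 35090000 of chromosome 18 for Egr1, and 192920000 to 193080000 of chromosome 1 for Atf3.

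The cells were adipose progenitors, the precursors of fat cells, from C57BL/6 mice aged 16 weeks, with no treatment. Open chromatin was mapped by ATAC-seq, which uses a transposase to put sequencing adapters into accessible DNA. There were 2 libraries from visceral fat (VAT 1 and VAT 2) and 2 from subcutaneous fat (SAT 1 and SAT 2). Nothing in the labels tells whether both libraries of a depot are separate animals or repeats of 1 preparation, and the spread between them may therefore be technical. How the tissue was dissociated and how progenitors were selected is not given either. The cell type could not be checked against marker genes, because the peak lists name no genes.

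Many immediate early genes are kept ready for induction, with promoters and enhancers that are accessible before the stimulus arrives. Serum response factor with its partners, and the cyclic AMP response element binding protein CREB, pass signals from kinases to several of them. Fos and Jun proteins pair through leucine zippers to form the transcription factor AP-1, JunB is a Jun relative that can take the place of Jun in that pair, Egr1 is a zinc finger factor, and Atf3 is a stress-induced factor of the ATF/CREB family. Accessibility is not transcription, and whether these genes were active in the cells was not measured.

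The bases just upstream of the start sites are shown because signals are known to reach these genes partly through elements close to the start. Sequences before RefSeq start sites on build GRCm38.p6 were taken for 4 of the 5 genes, Fos, Jun, Junb and Atf3. Egr1 was left out of this step, so its upstream bases were not searched for any motif. Each line holds the 250 bases before the start in the direction of the gene, and capitals mark the letters of the motifs searched. These positions belong to another build than the peaks and cannot be set beside them.
Fos (chr12:85473640-85473889, plus strand): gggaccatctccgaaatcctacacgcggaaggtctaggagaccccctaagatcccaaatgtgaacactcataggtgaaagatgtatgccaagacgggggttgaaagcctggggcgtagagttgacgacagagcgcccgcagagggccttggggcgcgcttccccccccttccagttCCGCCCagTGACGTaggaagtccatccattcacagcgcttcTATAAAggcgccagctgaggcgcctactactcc
Jun (chr4:95052223-95052472, minus strand): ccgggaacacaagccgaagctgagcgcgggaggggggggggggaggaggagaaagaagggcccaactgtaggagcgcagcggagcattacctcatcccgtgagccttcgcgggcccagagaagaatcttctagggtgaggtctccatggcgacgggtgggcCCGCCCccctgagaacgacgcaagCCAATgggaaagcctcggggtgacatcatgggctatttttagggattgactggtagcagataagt
Junb (chr8:84978749-84978998, minus strand): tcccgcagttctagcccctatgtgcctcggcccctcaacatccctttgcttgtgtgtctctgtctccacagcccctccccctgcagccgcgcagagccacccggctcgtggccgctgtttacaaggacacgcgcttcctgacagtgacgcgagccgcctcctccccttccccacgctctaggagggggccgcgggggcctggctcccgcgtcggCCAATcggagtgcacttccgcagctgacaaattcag
Atf3 (chr1:191183334-191183583, minus strand): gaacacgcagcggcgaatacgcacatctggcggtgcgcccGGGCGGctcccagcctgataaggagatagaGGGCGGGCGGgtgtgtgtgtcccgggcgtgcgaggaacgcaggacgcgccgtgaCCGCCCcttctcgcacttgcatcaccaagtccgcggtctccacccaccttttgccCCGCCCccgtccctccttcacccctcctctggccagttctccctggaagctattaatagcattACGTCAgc

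Fos had TATAAA from 33 to 28 bases before its start and TGACGT, the first letters of the CREB element TGACGTCA, from 66 to 61 bases before it. Atf3 had TGACGT on the opposite strand, from 8 to 3 bases before its start, where the line reads ACGTCA. Jun and Junb had CCAAT, from 65 to 61 and from 36 to 32 bases before the start. GGGCGG, or CCGCCC on the other strand, was found once in Fos, once in Jun and 5 times in Atf3, where 1 pair overlaps. Of 32851 RefSeq promoters of this length, 12.4% held TATAAA, 6.47% TGACGT, 33.8% CCAAT and 32.7% GGGCGG on either strand. The full TGACGTCA (1.55% of all promoters), the AP-1 element TGACTCA (4.46%), TTCCGG (12.0%) and the core of the serum response element, CC followed by 6 letters A or T and then GG (1.47%), were in none of the 4 stretches. Such a match describes letters only, and the absence of one says nothing about the factor. GC content was 58.4% for Fos, 61.2% for Jun, 66.4% for Junb and 65.2% for Atf3, against a median of 52.4% over all promoters.

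All 5 windows were open in every library, and peaks were denser there than in most of the genome. VAT 1 had 69 peaks in the windows, VAT 2 had 71, SAT 1 had 68 and SAT 2 had 36. Per 100 kb this was 9.45 in VAT 1, 9.73 in VAT 2, 9.32 in SAT 1 and 4.93 in SAT 2. The mean over 17244 genome tiles of 100 kb that held a region was 3.30 in VAT 1, 3.61 in VAT 2, 3.30 in SAT 1 and 1.32 in SAT 2, and 90% of these tiles held at most 8, 8, 7 and 4 peaks in the same order. Stretches of the same lengths directly before the windows held 40, 40, 41 and 22 peaks in VAT 1, VAT 2, SAT 1 and SAT 2, and those directly after held 45, 47, 47 and 27. At Jun, Junb and Egr1 the window held more peaks than either stretch in every library. At Jun the stretch before held only 3, 0, 4 and 0 peaks in the same order. At Fos the window held 14 peaks in VAT 1 and 16 in VAT 2, against 16 and 17 directly before. At Atf3 it held 16 in VAT 2, 16 in SAT 1 and 8 in SAT 2, against 17, 16 and 9 directly after. The windows were drawn around genes, and the tiles were not. SAT 2 is also the shortest list of the series, with 22845 peaks against 56823 to 62279 in the other libraries. Without read counts in the lists the depth behind a peak is unknown, and a site without a peak may still be open.

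**Figure D1:**
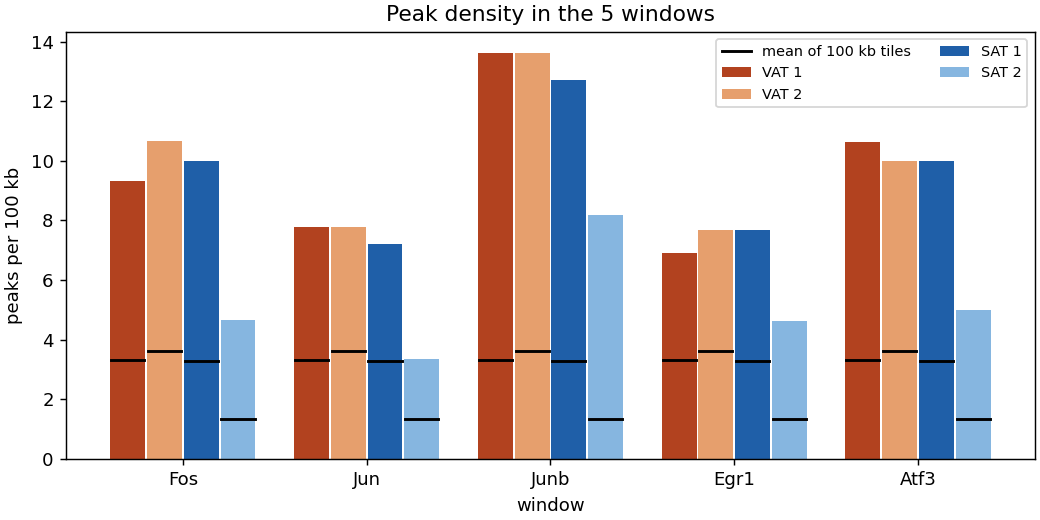
Peaks per 100 kb in each window (bars, 1 per library) beside the mean of 100 kb genome tiles for that library (black lines). Every bar stands above its line, from 3.33 in SAT 2 at Jun to 13.6 in VAT 1 and VAT 2 at Junb.

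The Junb window was the densest, with 13.6 peaks per 100 kb in VAT 1 and in VAT 2, 12.7 in SAT 1 and 8.18 in SAT 2. Fos had 9.33, 10.7, 10.0 and 4.67 in the same order of libraries, and Atf3 had 10.6, 10.0, 10.0 and 5.0. The Jun and Egr1 windows were sparser, with 3.33 to 7.78 at Jun and 4.62 to 7.69 at Egr1. In SAT 2 the count was the lowest of the libraries at each of the 5 genes, and the other libraries lay within 2 peaks of each other at every gene. The nearest protein-coding genes in the RefSeq table are Tmed10 and Jdp2 beside Fos, Mysm1 and Fggy beside Jun, Prdx2 and Hook2 beside Junb, Reep2 and Etf1 beside Egr1, and Fam71a and Nenf beside Atf3. A peak in a window may therefore belong to a neighbour, and no peak was assigned to a gene.

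Regions shared by all libraries were frequent in the windows. Of the 81 regions, 33 (40.7%) had a peak in all 4 libraries, against 23.2% of all merged regions. By gene these were 7 of 20 regions at Fos, 6 of 14 at Jun, 8 of 16 at Junb, 4 of 10 at Egr1 and 8 of 21 at Atf3. Without SAT 2, 51 of the 81 (63.0%) had a peak in the 3 other libraries, against 42.7% of all merged regions. All 33 window regions with a SAT 2 peak also had a peak in VAT 1, VAT 2 and SAT 1; over all merged regions this held for 90.7% of the 21340 regions with a SAT 2 peak. Median width of the shared regions was 630 bp, beside 524 bp for all shared regions of the series. A further 21 window regions had a peak in 1 library, with a median width of 146 bp, beside 130 bp for all such regions. Counts of regions carry no test here, since regions are not replicates. The windows were drawn around genes and were dense in peaks, while all merged regions were not chosen in that way. Whether the larger shared portion is particular to these genes was not tested.

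**Figure D2:**
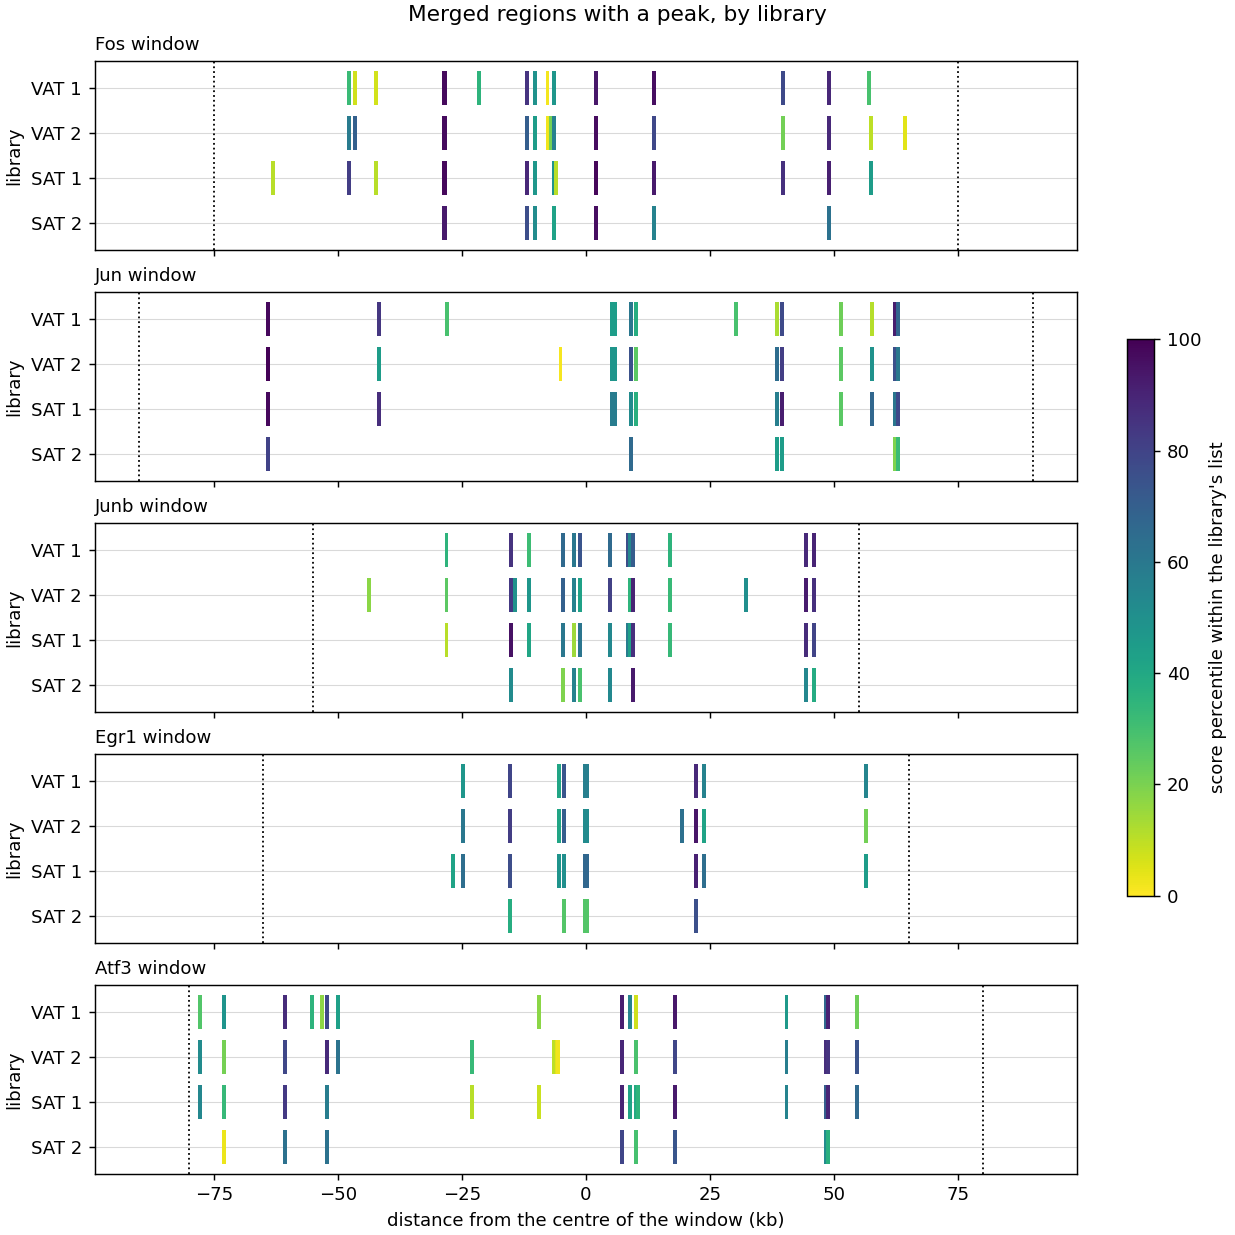
Merged regions with a peak in each library, by distance from the window centre in kb, coloured by the score percentile of the strongest peak of that library in the region; dotted lines mark the window edges, and regions under 0.8 kb are drawn 0.8 kb wide. The 33 regions present in all rows recur at the same places, and SAT 2 shows none outside them.

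Peak strength was read as the percentile of the authors' peak score within its own list, because scores cannot be compared between lists. Percentiles of lists of unlike length are not on the same scale either, and the SAT 2 list was the shortest. The low SAT 2 percentiles and the depot differences given below carry that limit. Of the window peaks, 16 of 69 in VAT 1 (23.2%), 16 of 71 in VAT 2 (22.5%), 18 of 68 in SAT 1 (26.5%) and 4 of 36 in SAT 2 (11.1%) stood at or above the percentile of 80, against about 20% of each list by construction. The median percentile of window peaks was 54.6 in VAT 1, 56.0 in VAT 2, 56.1 in SAT 1 and 51.7 in SAT 2. These medians lie near the middle of each list.

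At Fos, the leading region stood at the percentile of 93.1 or more in every list. It was the window region with the highest mean percentile, lay at 86795899 to 86796977 and was 1079 bp wide. A high value is expected from that choice. Averaged over the 5 windows, the strongest peak stood at 93.5 in VAT 1, 94.5 in VAT 2, 95.1 in SAT 1 and 85.0 in SAT 2. The leading Fos region had scores of 455 in VAT 1, 456 in VAT 2, 416 in SAT 1 and 231 in SAT 2, which put it at the percentiles of 97.6, 97.0, 97.7 and 93.1. The second region, 30.6 kb away at 86826772 to 86827347, had percentiles of 93.7 in VAT 1, 96.6 in VAT 2, 98.4 in SAT 1 and 96.1 in SAT 2. In both regions the depots overlapped. The largest depot difference of the window's shared regions, 12.8 points, was at 86838435 to 86839142, with percentiles of 96.3 in VAT 1, 78.3 in VAT 2, 93.3 in SAT 1 and 55.6 in SAT 2. There, too, the depots overlapped, and the libraries numbered 1 stood above those numbered 2.

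Between these strong sites the Fos window held a cluster of weaker ones. From 86814446 to 86819086, a stretch of 4.64 kb held 6 merged regions, and 0.119% of all merged regions began a stretch of 5 kb with as many or more; this stretch was picked after the values were seen. Of the 6 regions, 2 had a peak in all 4 libraries. The first, at 86814446 to 86815033, had percentiles of 49.2 in VAT 1, 45.3 in VAT 2, 47.1 in SAT 1 and 51.7 in SAT 2. The other, at 86818173 to 86818802, had percentiles of 47.3, 56.5, 48.3 and 42.5 in the same order. In both the depots overlapped, and both stood near the middle of each list. In the remaining 4 regions peaks were found in 1 library, or in both visceral libraries, with percentiles of at most 21.3.

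At Jun, the leading region lay in the outer part of the window, at 94645542 to 94646328. Scores of 464 in VAT 1, 576 in VAT 2, 425 in SAT 1 and 158 in SAT 2 gave percentiles of 97.8, 99.3, 97.9 and 80.4, and the VAT 2 value was the highest percentile of any window region. The next region, 103 kb away at 94749071 to 94749792, stood at 77.5 in VAT 1, 81.7 in VAT 2, 92.0 in SAT 1 and 45.1 in SAT 2. The subcutaneous libraries enclosed both visceral values there. A broad region of 1289 bp, picked after its values were seen and the widest of all the windows, lay at 94714914 to 94716202 and had percentiles of 44.9 in VAT 1, 47.9 in VAT 2 and 58.4 in SAT 1, with no peak in SAT 2.

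The region with the largest depot difference of any window was also at Jun, at 94772115 to 94772416. Its scores were 335 in VAT 1, 186 in VAT 2, 123 in SAT 1 and 55 in SAT 2, at percentiles of 92.0, 75.7, 60.7 and 19.2. Both visceral values lay above both subcutaneous ones. The mean percentile was 83.8 ± 11.5 in visceral and 39.9 ± 29.4 in subcutaneous libraries (SD, n = 2 each), a difference of 43.9 points. Another region, 283 bp wide at 94772688 to 94772970 and also picked after its values were seen, had its highest percentile in SAT 1 (78.1), against 67.6 in VAT 1, 60.0 in VAT 2 and 32.4 in SAT 2.

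At Junb, the leading region was narrow, with 278 bp at 87514247 to 87514524, and ranked highest in SAT 2. Its scores were 176 in VAT 1, 318 in VAT 2, 243 in SAT 1 and 231 in SAT 2, at percentiles of 71.3, 90.4, 86.6 and 93.1. Here VAT 1 was the lowest library. The second region, at 87549184 to 87549581, had percentiles of 88.5 in VAT 1, 92.5 in VAT 2, 87.5 in SAT 1 and 53.8 in SAT 2. Its neighbour at 87550595 to 87551193 had the largest depot difference of the Junb window, with 90.0 in VAT 1, 86.6 in VAT 2, 79.7 in SAT 1 and 38.7 in SAT 2. In both, the visceral values lay above the subcutaneous ones, by 19.8 and 29.1 points on average. In the region at 87502441 to 87502817, picked after its values were seen, SAT 1 was the lowest library, with percentiles of 60.2 in VAT 1, 56.0 in VAT 2, 14.6 in SAT 1 and 55.6 in SAT 2.

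At Egr1, the leading region at 35046700 to 35047450 had scores of 293 in VAT 1, 389 in VAT 2, 285 in SAT 1 and 141 in SAT 2. These stood at percentiles of 88.6, 94.4, 90.9 and 75.8, and the depots overlapped. The second, at 35009269 to 35010029, stood at 79.5 in VAT 1, 82.4 in VAT 2, 76.6 in SAT 1 and 37.5 in SAT 2. The lists split it into 7 peaks in all. The largest depot difference, 33.3 points, was at 35020078 to 35020957, where percentiles were 73.7 in VAT 1, 70.5 in VAT 2, 50.6 in SAT 1 and 26.9 in SAT 2. In the last 2 of these regions both visceral values were above both subcutaneous ones.

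At Atf3, the leading region at 193006954 to 193007561 had scores of 334 in VAT 1, 300 in VAT 2, 281 in SAT 1 and 154 in SAT 2, at percentiles of 91.9, 89.1, 90.6 and 79.5. The second lay 10.6 kb away at 193017589 to 193018166 and stood at 93.4 in VAT 1, 79.1 in VAT 2, 93.1 in SAT 1 and 73.6 in SAT 2. In this second region the libraries numbered 1 were alike and above those numbered 2. The largest depot difference, 24.6 points at 193048675 to 193048974, had 1 low library, SAT 2: percentiles were 90.9 in VAT 1, 85.1 in VAT 2, 89.7 in SAT 1 and 36.9 in SAT 2. One region at 192947705 to 192948038 had both visceral values above both subcutaneous ones without a low SAT 2, with 78.4 in VAT 1, 88.0 in VAT 2, 57.8 in SAT 1 and 62.4 in SAT 2. The only window region with both subcutaneous values above both visceral ones was at 193009938 to 193010325, with 7.20 in VAT 1, 28.9 in VAT 2, 39.4 in SAT 1 and 29.4 in SAT 2. These last 2 regions were picked after their values were seen.

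**Figure D3:**
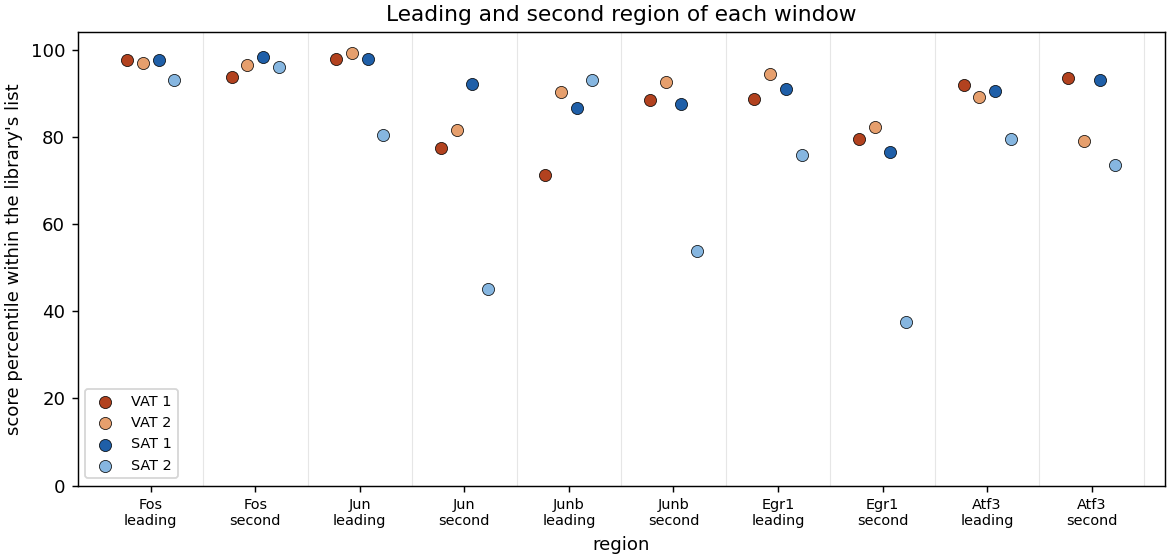
Score percentile of the leading and the second region of each window in the 4 libraries (points, 1 per library; y axis in percentile points within the library's own list). The Fos regions stand at 93.1 or more in every library, while SAT 2 falls to 37.5 at the second Egr1 region.

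Regions restricted to a depot were few, and their counts were near the share over all merged regions. In the windows 3 of 81 regions had a peak in both visceral lists and in neither subcutaneous one, against 4.60% of all merged regions, and 0 of 81 had the reverse, against 0.110% of all merged regions. Of the 3 visceral regions, 2 were at Fos. The region at 86778091 to 86778758 had scores of 45 in VAT 1 and 158 in VAT 2, at percentiles of 7.20 and 69.9, and that at 86817155 to 86817342 had scores of 31 and 32, at percentiles of 1.65 and 2.34. The third was at Atf3, at 192949951 to 192950089, with scores of 94 and 129, at percentiles of 43.6 and 61.8. No region at Jun, Junb or Egr1 was restricted to a depot.

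Over the 33 shared regions, the difference between visceral and subcutaneous progenitors rested on SAT 2, the library with the shortest list. The median percentile was 78.4 in VAT 1, 79.1 in VAT 2, 78.1 in SAT 1 and 52.2 in SAT 2, beside 80.3, 83.5, 80.4 and 55.6 over all 19350 shared regions of the series. Of all regions with a SAT 2 peak 90.7% were shared, against 31.6% to 35.4% in the other libraries. A SAT 2 median near the middle of its list follows from that share. With each list held to its 22845 highest-scoring peaks, 20 window regions were shared, and the depot difference in their median was -0.58 points. With the full lists it was 13.6 points over the 33 shared regions, so these values describe different sets of regions. SAT 2 was the lowest library in 24 of the 33 regions (72.7%), near its share of 75.3% over all shared regions. VAT 1 minus SAT 1 had a median of 0.96 points, with VAT 1 higher in 18 regions and lower in 15. VAT 2 minus SAT 2 had a median of 19.9 points, with VAT 2 higher in 29 regions and lower in 4. Over all shared regions the same medians were -0.08 and 21.6 points, so the windows stood close to the rest of the series. In 9 of the 33 regions (27.3%) both visceral percentiles lay above both subcutaneous ones, against 32.7% of all shared regions, and in 1 (3.03%) below, against 2.99%; both shares are near the background. Those 9 regions comprised 5 at Junb, 2 at Egr1, 1 at Jun and 1 at Atf3.

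**Figure D4:**
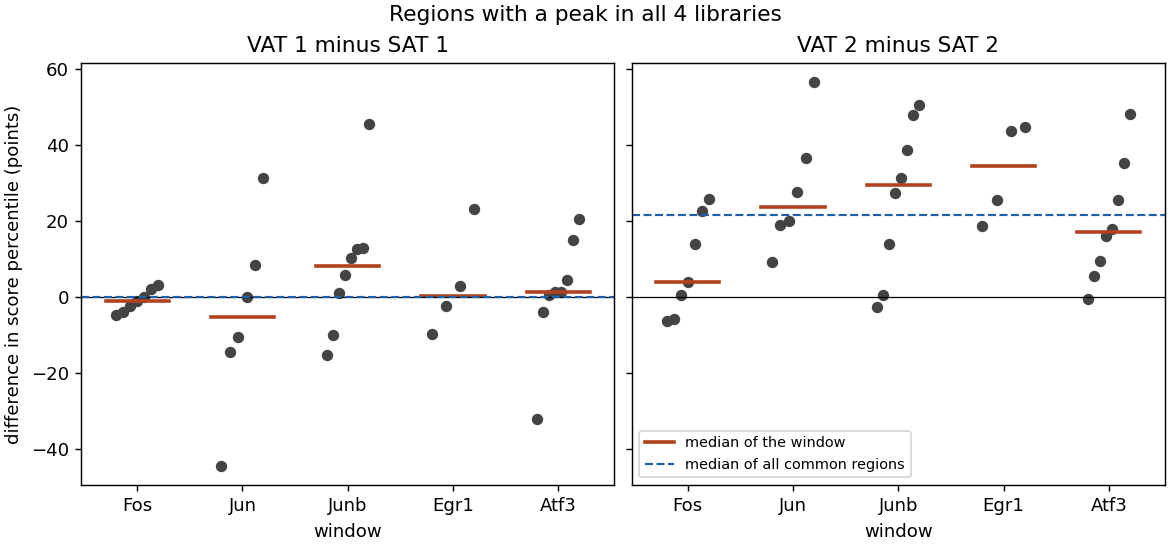
Difference in score percentile, VAT minus SAT in points, for each of the 33 regions with a peak in all 4 libraries (points), within the libraries numbered 1 (left) and 2 (right); red bars are window medians and dashed lines the median of all 19350 shared regions. Points scatter around 0 on the left (median 0.96) and lie mostly above it on the right (median 19.9).

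The Fos window had the narrowest range of differences within the libraries numbered 1 and the lowest median within those numbered 2. Its 7 shared regions had differences of VAT 1 minus SAT 1 from -4.71 to 2.97 points, and of VAT 2 minus SAT 2 from -6.43 to 25.7 points. In the other windows, the second comparison had medians of 23.7 points at Jun, 29.4 at Junb, 34.5 at Egr1 and 17.0 at Atf3, against 3.93 at Fos. These are descriptions of 4 to 8 regions per window, and the difference between windows was not tested.

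Each depot difference of the 5 windows together was smaller than the SD of the subcutaneous libraries. With so few libraries, the exact test could not decide whether the depots differ. The windows held 70.0 ± 1.41 peaks in visceral and 52.0 ± 22.6 in subcutaneous libraries (SD, n = 2 each), and the peaks covered 24.5 ± 2.24 kb in visceral and 16.3 ± 8.48 kb in subcutaneous libraries. The median percentile of shared regions was 78.7 ± 0.54 in visceral and 65.1 ± 18.3 in subcutaneous libraries. For each of these 3 measures a two-sided exact permutation test gave p = 0.333, the smallest that 2 libraries against 2 allow, and p = 0.444 after Benjamini-Hochberg adjustment over 4 comparisons. The strongest peak of a window stood on average at the percentile of 94.0 ± 0.69 in visceral and 90.1 ± 7.18 in subcutaneous libraries, with p = 1 in the same exact test. Without SAT 2 the differences were 2 peaks, 2.20 kb and 1.16 points of the median, and the strongest peak was then 1.16 points lower in visceral than in subcutaneous progenitors. That median was taken over the 51 regions shared by the remaining libraries, a larger set than above. It was 65.4 on average in the visceral libraries and 64.2 in SAT 1.

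By gene, Junb was the 1 window whose strongest peak ranked lower in both visceral libraries, at the percentiles of 90.0 in VAT 1 and 92.5 in VAT 2, against 95.4 in SAT 1 and 93.1 in SAT 2. The difference of -2.93 points gave p = 0.333 in the two-sided exact permutation test, and p = 0.769 after adjustment over 15 comparisons of 3 measures in 5 windows. The strongest peak lay in a different region in each library. It was at 87550595 to 87551193 in VAT 1 and at 87549184 to 87549581 in VAT 2. In SAT 1 it was at 87489581 to 87490262, a region named here after its values were seen, and in SAT 2 at 87514247 to 87514524. In the VAT 1 and VAT 2 regions both visceral percentiles lay above both subcutaneous ones. In the SAT 1 and SAT 2 regions the depots overlapped. Adjusted p-values were 0.769 or more in all 15 exact tests.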

How the data were processed

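Open chromatin was measured by ATAC-seq in 4 libraries, grouped and numbered by their titles. Per the submitters' processing notes, Bowtie2 and MACS2 were used, on mm9. For their versions and options, duplicate handling, end shift and repeat filters, the sources used here give nothing. The authors deposited 1 peak list per library, with positions and a peak score per peak. The score has no stated scale, so it was used only as a percentile within its list. It is the authors' value.

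Peaks overlapping by at least 1 bp were merged with Python 3.11.15, pandas 2.3.3 and numpy 2.4.6, and bedtools 2.31.1 gave the same 83319 regions. The merging was tested on simulated data. A region took the strongest peak of each library. Depot values were compared over libraries with a two-sided exact permutation test. P-values refer to these libraries only, and with 2 libraries against 2 they could not fall below 0.333. In each window the text names the 2 regions with the highest mean percentile (no peak counting as 0), the shared region with the largest depot difference, and every depot-restricted region; other regions are said to be picked after their values were seen. The genes, windows and measures were chosen with earlier results of these data known. TGACGT and the stretch of 5 kb were added after seeing the data. Other immediate early genes and marker genes need an annotation of mm9 and were not analysed here.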

Additional observations from a re-analysis of the deposited data

How the results depend on the processing

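The depot comparison depends on list length and on SAT 2. With each list held to its 22845 highest-scoring peaks, the difference between visceral and subcutaneous progenitors turned round for peaks in the windows (-3), for the mean percentile of the strongest peak (-2.12) and for the median percentile of shared regions (-0.58), while that in covered bases kept its direction but shrank to 2.31 kb, against 8.19 kb with the full lists. Shared regions then numbered 20, visceral-restricted 0 and subcutaneous-restricted 1, the last at Egr1 from 35024643 to 35025440; its visceral peaks fell outside the shortened lists. In the top 50% of each list, shared regions numbered 17 and visceral-restricted 0. In the central 50% of each window 1 visceral-restricted region was left. Leaving out each library in turn gave differences of 2 to 34 peaks, 2.20 to 14.2 kb, -1.16 to 8.99 points for the strongest peak and 1.16 to 26.6 points for the median, with the lowest value of each without SAT 2 and the highest without SAT 1. It gave 33 to 51 shared, 3 to 21 visceral-restricted and 0 to 4 subcutaneous-restricted regions. These counts rise by construction, since fewer peaks are then required. The subcutaneous count of 4 and the shared count of 51 came without SAT 2; the visceral count was 21 without SAT 1, 14 without VAT 1 and 10 without VAT 2. All other alternatives kept the direction of each difference and moved each count by at most 1.5 times.

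The replicate number as a block left the differences at 18 peaks, 8.19 kb, 3.91 points and 13.6 points, with exact p of 0.5, 0.5, 1 and 0.5, where 0.5 is the smallest possible. The labels do not say what a number marks. Deviations of same-numbered libraries correlated at 0.339 over the 33 shared regions of the windows and at 0.152 over all 19350, and regions are not independent.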
